A study of Ciona robusta with 8 samples.

Results

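A group of 6 regulatory genes of the ascidian cardiopharyngeal lineage is described here in trunk ventral cells of the sea squirt Ciona robusta, and all of them were found among the 15232 gene models that each library lists. They were chosen by identifier as known regulators of these cells, by a rule that uses no measured value, although earlier results of these data were known when the choice was made. They are Mesp (KH2013:KH.C3.100), Foxf (KH2013:KH.C3.170), Gata4/5/6 (KH2013:KH.L20.1), Nk4 (KH2013:KH.C8.482), Hand (KH2013:KH.C14.604) and Hand-r (KH2013:KH.C1.1116). The pairing of symbol and identifier came with this choice of genes, since the count tables carry identifiers alone and 0 of the 6 symbols matched the RefSeq table for another assembly of the species. Coordinates and sequences were therefore not used here.

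In ascidians the heart and the pharyngeal muscles both derive from trunk ventral cells, which descend from a small founder lineage that expresses Mesp. In Ciona, Mesp acts at the top of the lineage, FGF signalling then switches on regulators of the trunk ventral cells such as Foxf, and Gata4/5/6, Nk4 and the Hand genes make up the cardiac regulatory set shared with vertebrates. Tcf proteins bind DNA and mediate the transcriptional response to canonical Wnt signals.

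The 8 bulk RNA sequencing libraries form 4 groups of 2 by guide RNA (gRNA) and age. Embryos carried CRISPR/Cas9 with a control gRNA or with a gRNA against Tcf, and cells were sorted at 15 or 18 hours post fertilization (hpf). All groups therefore share the editing procedure, and they differ in guide and time. The promoter that drove Cas9, the sorting marker, the share of edited cells and the number of embryos pooled could not be taken from the labels.

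Each sample held 200 to 800 sorted cells and 250 to 2000 pg of RNA, and library totals ran from 6207795 to 9556959 counts. The labels do not say if replicate libraries derive from independent batches of embryos. The p-values below then reflect only the variation among these samples, part or all of which could be technical. Levels are given in CPM, counts scaled to a common library total and adjusted by trimmed mean of M-values (TMM), and a gene was called changed at an adjusted p under 0.05 in edgeR's quasi-likelihood test over 11970 models. All 6 genes passed the filter on low counts. These genes are themselves regulators of trunk ventral cells, and each of them had counts in all 8 libraries. In each library 87.3% to 95.9% of all 15232 models had a count, so their detection is no check of cell identity. Tcf itself and markers of other tissues were not paired with identifiers in the sources used here, so the counts of the targeted gene could not serve as a check of the labels.

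The clearest change among the regulators was a fall of Hand-r between 15 and 18 hpf, by 3.72-fold with the control guide and by 3.35-fold with the Tcf guide. Foxf, Gata4/5/6 and Nk4 kept levels within 1.31-fold, 1.42-fold and 1.35-fold from the lowest to the highest of the 8 libraries. Hand was lower at 18 hpf with the control guide, at the edge of the threshold. Mesp gave few counts throughout. None of the 6 genes differed between Tcf and control gRNA at an adjusted p under 0.05, at either time.

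**Figure D1:**
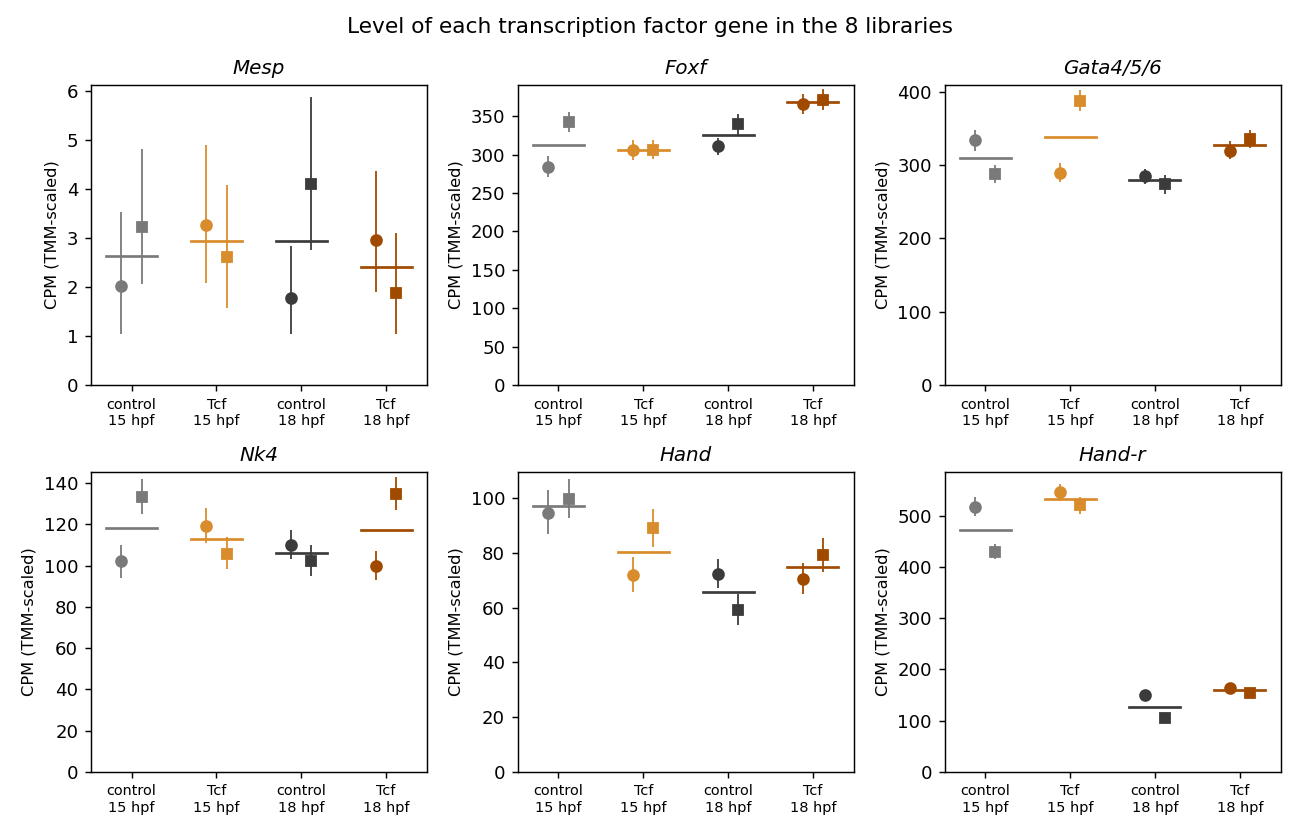
TMM-scaled CPM (vertical axis, from 0) of each of the 6 genes in the 8 libraries, by guide and time (horizontal axis). Circles are replicate 1, squares replicate 2, vertical lines the 95% Poisson counting interval of each library and horizontal lines the group mean. Hand-r lay between 429 and 546 CPM at 15 hpf and between 104 and 163 CPM at 18 hpf, while the other 5 genes had overlapping libraries at the 2 ages.

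Mesp encodes a basic helix-loop-helix factor that specifies the founder cells of the lineage in Ciona. At 15 hpf its model had 12 and 24 counts under the control guide, with 23 and 19 counts under the Tcf guide. At 18 hpf it had 17 and 29 counts under the control guide, with 25 and 15 under the Tcf guide. The groups overlapped fully. On the CPM scale the level at 15 hpf was 2.63 ± 0.857 (control guide) or 2.95 ± 0.464 (Tcf guide), and at 18 hpf 2.94 ± 1.64 or 2.42 ± 0.76 (mean ± SD, n = 2 each). All 8 libraries stood above the floor of 3 counts, which equalled 0.314 to 0.506 CPM.

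Counting error alone was large for Mesp. The 95% Poisson interval of the lowest library, control replicate 1 at 18 hpf, ran from 1.04 to 2.85 CPM, and that of the highest, control replicate 2 at 18 hpf, from 2.75 to 5.89 CPM. No molecular identifiers are described, so such intervals and floors cover counting error only. The 95% interval of the fold change between 18 and 15 hpf ran from 0.442 to 2.73 with the control guide and from 0.333 to 2.04 with the Tcf guide. A change of 2-fold in either direction was therefore not excluded for Mesp.

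Foxf encodes a forkhead factor that in Ciona is induced by FGF signalling in trunk ventral cells and is needed for their migration. Its level at 15 hpf was 284 and 343 CPM under the control guide, and 306 CPM in both libraries of the Tcf guide. At 18 hpf the control guide gave 311 and 340 CPM, while the Tcf guide gave 366 and 371 CPM. The Tcf libraries of 18 hpf lay above every other library, and the control libraries of the ages overlapped. In order of the group means, Tcf at 18 hpf (369 ± 3.53) was followed by control at 18 hpf (325 ± 20.5), control at 15 hpf (313 ± 41.4) and Tcf at 15 hpf (306 ± 0.135, SD, n = 2 each).

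With the Tcf guide the log2 fold change of Foxf from 15 to 18 hpf was 0.27 (SE 0.12, edgeR adjusted p = 0.201), and with the control guide it was 0.05 (SE 0.12, edgeR adjusted p = 0.842). Neither passed the threshold. With library totals in place of TMM the Tcf comparison passed (log2 fold change 0.42, adjusted p = 0.0406), a scaling under which the median of all 11970 models in that comparison itself stood at 0.20. Under that scaling the mean of both guides passed too, at 0.30 with an adjusted p of 0.0225. The TMM factors behind these values were 0.936 to 0.968 at 15 hpf and 1 to 1.091 at 18 hpf, so scaling and time moved together.

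Gata4/5/6 encodes a zinc finger factor whose vertebrate relatives act in heart formation. At 15 hpf the control guide gave 333 and 287 CPM, while the Tcf guide gave 289 and 387 CPM. At 18 hpf these values were 284 and 273 CPM (control guide) against 320 and 335 CPM (Tcf guide). The group means were 338 ± 69.2 (Tcf, 15 hpf), 327 ± 11.1 (Tcf, 18 hpf), 310 ± 32.6 (control, 15 hpf) and 279 ± 7.79 CPM (control, 18 hpf, SD, n = 2 each). A single library, Tcf replicate 2 at 15 hpf, was the highest. The libraries of 15 and 18 hpf did not overlap with the control guide and overlapped with the Tcf guide. By edgeR the log2 fold change with time was -0.15 under the control guide (SE 0.14, adjusted p = 0.561), and -0.05 under the Tcf guide (SE 0.14, adjusted p = 0.889), so neither passed.

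Nk4 encodes a homeodomain factor, the Ciona relative of tinman and Nkx2-5, which in Ciona promotes heart over pharyngeal muscle fate. At 15 hpf it stood at 102 and 133 CPM under the control guide, with 119 and 106 CPM under the Tcf guide. At 18 hpf it stood at 110 and 102 CPM under the control guide, with 99.8 and 134 CPM under the Tcf guide. The group means lay between 106 ± 5.63 (control, 18 hpf) and 118 ± 22.2 CPM (control, 15 hpf, SD, n = 2 each). The 4 groups overlapped, and the Tcf libraries of 18 hpf alone spanned the range of all 8 libraries. The 95% interval of the fold change with time was 0.688 to 1.18 under the control guide, or 0.795 to 1.36 under the Tcf guide, so that neither interval reached 2-fold in either direction.

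Hand encodes a basic helix-loop-helix factor of the Hand family, which takes part in heart development across animals. At 15 hpf the control guide gave 94.5 and 99.7 CPM, while the Tcf guide gave 71.9 and 89 CPM. At 18 hpf the control guide gave 72.3 and 59.2 CPM, while the Tcf guide gave 70.4 and 79 CPM. Both control libraries at 15 hpf were above all others, and the lowest was control replicate 2 at 18 hpf. In order of the group means, control at 15 hpf (97.1 ± 3.64) was followed by Tcf at 15 hpf (80.5 ± 12.1), Tcf at 18 hpf (74.7 ± 6.12) and control at 18 hpf (65.7 ± 9.29, SD, n = 2 each). The 3 lower groups overlapped one another.

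With the control guide Hand fell by 0.56 on the log2 scale from 15 to 18 hpf (SE 0.17, 1.48-fold, edgeR adjusted p = 0.0487). This call rested on a narrow margin. It held in 4 of 17 alternatives, whose adjusted p ran from 0.0265 with DESeq2 to 0.272 without control replicate 2 at 18 hpf. It was lost in the other 13, among them limma-voom (0.0504), both fits with the replicate block (0.0714 and 0.0688) and the fit without control replicate 1 or 2 at 15 hpf (0.0996 and 0.131) or without control replicate 1 at 18 hpf (0.0536). With the Tcf guide the log2 fold change was -0.11 (SE 0.17, adjusted p = 0.767). The difference between the guides was tested by the interaction, which was 0.45 (SE 0.24, adjusted p = 0.989), so a different course of Hand with time under the Tcf guide was not shown.

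Hand-r is a divergent Hand-related basic helix-loop-helix gene and a marker of the trunk ventral cells in Ciona. At 15 hpf its level was 517 and 429 CPM under the control guide, against 546 and 520 CPM under the Tcf guide. At 18 hpf its level was 150 and 104 CPM under the control guide, against 163 and 155 CPM under the Tcf guide. The group means fell in the order Tcf (533 ± 18.1) and control (473 ± 62) at 15 hpf, then Tcf (159 ± 5.88) and control (127 ± 32.4 CPM) at 18 hpf (SD, n = 2 each). All 4 libraries of 18 hpf lay below all 4 of 15 hpf, as they did for 12.8% of the 11970 tested models. The counts behind these values were 3063 to 3834 per library at 15 hpf and 736 to 1432 at 18 hpf, so counting error was small.

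The log2 fold change of Hand-r from 15 to 18 hpf was -1.89 (SE 0.17, 95% interval -2.26 to -1.53, edgeR adjusted p = 1.37e-05) with the control guide. With the Tcf guide it was -1.75 (SE 0.16, 95% interval -2.1 to -1.39, adjusted p = 3.26e-05). The fall was called in each of the 17 alternatives of either guide, at adjusted p up to 0.000233 and 0.00123. The interaction of guide and time was 0.15 (SE 0.23, 95% interval -0.35 to 0.64, adjusted p = 0.994), which leaves room for a moderate difference in the size of the fall. In bulk samples, fewer cells that express a gene and less RNA of that gene in each cell cannot be told apart.

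Time was a strong axis for the whole transcriptome, so the members' counts are set against it. With the control guide 2 of the 6 members were called, both lower, where 13% of all tested models were called and 5.86% were called lower. With the Tcf guide 1 member was called lower, where 11.1% of models were called and 5.37% lower. As the mean of both guides 1 member, Hand-r, was called lower (log2 fold change -1.82, SE 0.12, adjusted p = 4.75e-07), where 22.9% of models were called and 10.7% lower. The counts over all models within a guide depended on single libraries. They fell when any 1 library of that guide was left out. The control count also fell when any 1 Tcf library was left out, while the Tcf count rose when any 1 control library was left out. Each omission leaves a single library in its group. For control the omissions with the largest falls are given. In control 1557 models were called, against 931 of 12755 without replicate 1 at 15 hpf and 999 of 12730 without replicate 2 at 18 hpf. In Tcf 1325 models were called, against 806 and 814 without replicate 1 or 2 at 15 hpf and 687 and 705 without replicate 1 or 2 at 18 hpf.

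The median log2 fold change with time over the 6 members was -0.15 (control guide) or -0.08 (Tcf guide), against 0.02 and 0.04 over all 11970 models. Libraries of 15 and 18 hpf did not overlap for 3 members in control and 2 in Tcf, where 53% and 55.9% of all models did not overlap. The members' shares are near or below these background shares. In the distribution of the mean change with time, 1.51% of models had a lower log2 fold change than Hand-r and 21.7% a lower one than Hand. For Gata4/5/6, Mesp, Nk4 and Foxf, between 74.7% and 92.4% of all models had a larger change in absolute size.

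**Figure D2:**
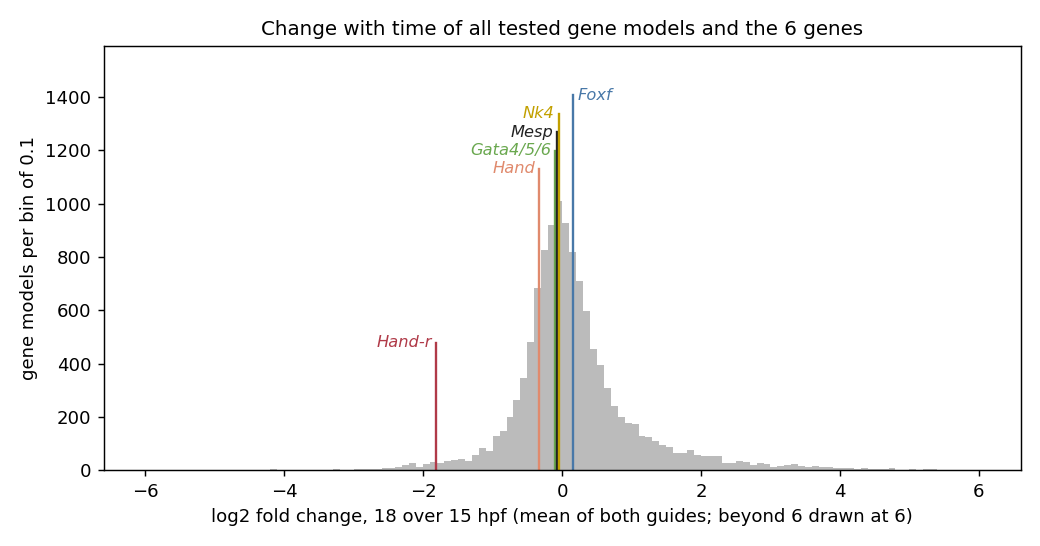
Number of gene models (vertical axis) by log2 fold change from 15 to 18 hpf as the mean of both guides (horizontal axis), over all 11970 tested models in grey, with a coloured line at the value of each of the 6 genes (line height has no meaning). Hand-r stood at -1.82 in the lower tail, and the other 5 genes between -0.33 and 0.16 near the centre.

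The comparison of guides asked whether targeting Tcf alters expression of these regulators in the progenitors. At 15 hpf 0 of 6 members were called, where 0.00835% of all models, a single one, was called. An unadjusted p under 0.05 was found for 0 members and for 605 of the 11970 models. At 18 hpf 0 of 6 members and 0.00835% of all models were called, and an unadjusted p under 0.05 was found for 0 members and 459 models. DESeq2 also called 0 members at either time, while it called 22 of all models at 15 hpf and 16 at 18 hpf. Limma-voom called 0 members, and 4 of all models at 15 hpf and 1 at 18 hpf. The count over all models depended on single libraries too, at 15 hpf most on Tcf replicate 1 at 15 hpf, without which 19 models were called, and the other 7 omissions gave 1 to 6. At 18 hpf leaving out single libraries gave 0 to 6 models, with 0 without Tcf replicate 1 at 18 hpf and 6 without either control replicate at 18 hpf. Across the 24 guide comparisons of a member, which include the average over times and the interaction, 0 of 396 alternatives passed, and the lowest adjusted p among them was 0.699. For 3 of these, all of Mesp, DESeq2 gave no adjusted p.

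Within the spread of these libraries, the intervals bound the difference between guides in the bulk samples. They may be too narrow, since part or all of that spread could be technical. The share of edited cells is not known, so they do not bound an effect within edited cells. Each is a 95% interval of a single comparison, not adjusted for the number made. For Foxf the fold change of Tcf over control lay between 0.813 and 1.17 at 15 hpf and between 0.944 and 1.36 at 18 hpf. For Gata4/5/6 it lay between 0.877 and 1.35 at 15 hpf and between 0.944 and 1.46 at 18 hpf. For Nk4 the bounds were 0.73 and 1.25 at 15 hpf and 0.844 and 1.44 at 18 hpf.

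For Hand the fold change of Tcf over control lay between 0.641 and 1.07 at 15 hpf and between 0.879 and 1.47 at 18 hpf. For Hand-r it lay between 0.885 and 1.43 at 15 hpf and between 0.978 and 1.6 at 18 hpf. None of these 5 genes therefore had an interval that reached 2-fold in either direction. Mesp did, with 0.446 to 2.77 at 15 hpf and 0.338 to 2.06 at 18 hpf, so a 2-fold effect of the guide on Mesp was not excluded.

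**Figure D3:**
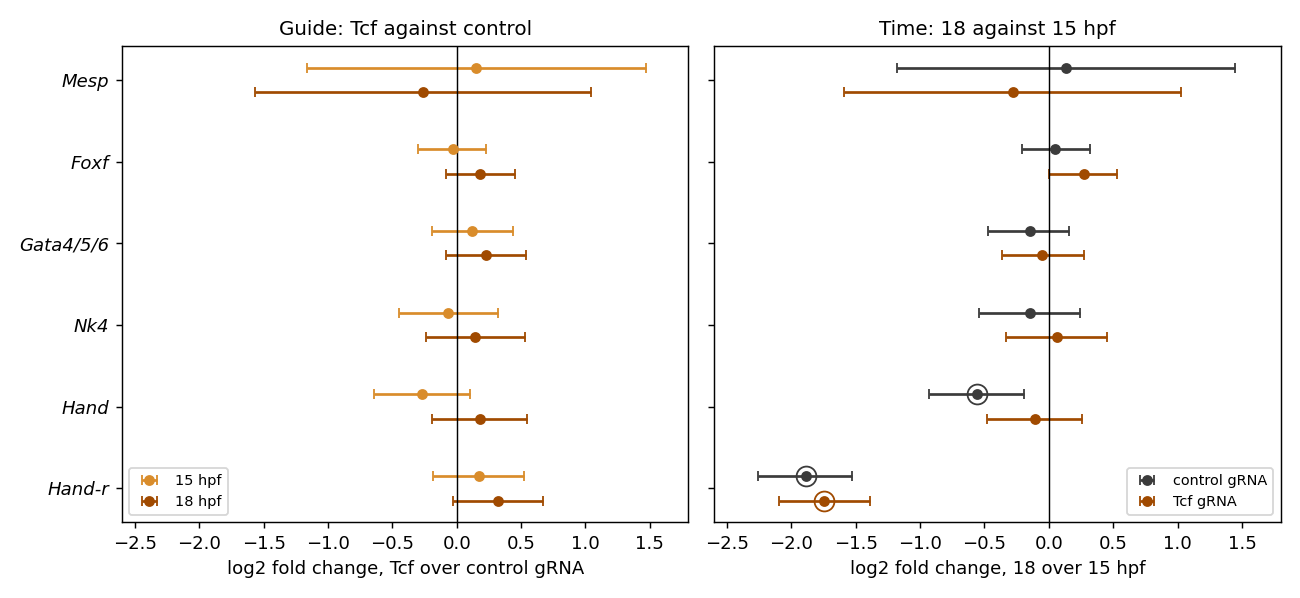
Log2 fold changes (horizontal axes) of the 6 genes (vertical axis), for Tcf over control gRNA at each time on the left and for 18 over 15 hpf with each guide on the right. Points are edgeR estimates, bars their 95% intervals, and a ring marks an adjusted p under 0.05. Rings appear for Hand-r with both guides (-1.89 and -1.75) and for Hand with the control guide (-0.56), and none appears on the left.

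Some small shifts between guides had libraries that did not overlap. At 15 hpf this held for 2 members, Hand, lower in Tcf, and Hand-r, higher in Tcf, where 32.5% of all models did not overlap. At 18 hpf it held for 3 members, Foxf, Gata4/5/6 and Hand-r, all higher in Tcf, where 32.3% of all models did not overlap. Hand-r was the member for which both Tcf libraries lay above both control libraries at each time, an order found for 2.7% of all models.

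As the mean of both times 0 of 6 members were called, where 0.0167% of all models, 2 in number, were called (15 with DESeq2, and 11 without Tcf replicate 1 at 15 hpf). For Hand-r the log2 fold change of Tcf over control was 0.17 at 15 hpf, 0.32 at 18 hpf and 0.25 for their mean (SE 0.11, unadjusted p = 0.0511, edgeR adjusted p = 1). It did not pass. At 18 hpf the value depended on which control library was kept, since without control replicate 2 it was 0.05, and without control replicate 1 it was 0.60. The median log2 fold change of Tcf over control over the 6 members was 0.05 at 15 hpf and 0.18 at 18 hpf, against 0.01 over all models at each time. The interaction of guide and time called 0 of 6 members and 0% of all models (561 models and 0 members had an unadjusted p under 0.05).

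Counts of the 6 genes were also compared with one another inside each library, which needs no scaling between libraries. Counts follow transcript length as well as abundance, so that shares and ratios of different genes are read for their change between libraries and not as an order of abundance. Hand-r supplied 33.1% to 40.9% of the summed counts of the 6 genes at 15 hpf and 11.8% to 16.1% at 18 hpf. The lowest library was control replicate 2 at 18 hpf, with 11.8% (Wilson 95% interval 11 to 12.6).

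The shares sum to 100%, so a lower share of Hand-r raises those of the other genes by construction, and a higher share is no rise of a gene's own level. Foxf went from 21.3% to 26.4% of the summed counts at 15 hpf to 33.4% to 38.5% at 18 hpf, and Gata4/5/6 from 21.7% to 27.4% to 30.6% to 31.3%. The share of Hand was 5.38% to 7.69% at 15 hpf and 6.7% to 7.78% at 18 hpf, and its libraries overlapped. The summed CPM of the 6 genes was 1296 to 1411 at 15 hpf and 883 to 1077 at 18 hpf. Without Hand-r the sum was 790 to 891 and 778 to 922 CPM, so that without Hand-r the ages overlapped.

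The 2 related genes Hand and Hand-r were set against each other in the same library. The ratio of Hand-r to Hand counts at 15 hpf was 5.47 and 4.31 under the control guide, against 7.59 and 5.85 under the Tcf guide. At 18 hpf this ratio was 2.08 and 1.76 under the control guide, against 2.32 and 1.96 under the Tcf guide. The ages did not overlap. At 15 hpf both Tcf libraries were above both control libraries, while at 18 hpf the guides overlapped. A difference of this ratio between guides was not tested.

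The mean log2 ratio was 2.51 ± 0.34 at 15 hpf and 1.01 ± 0.17 at 18 hpf (SD, n = 4 each), a difference of -1.49, or 2.82-fold lower (exact two-sided permutation test, p = 0.0286, the smallest that 4 against 4 libraries can give). All 4 libraries of 18 hpf had a lower ratio than all 4 of 15 hpf. The permutation exchanged libraries across guides as well as ages, so its p treats the guides as exchangeable. Within guides the difference was -1.34 (control guide) or -1.64 (Tcf guide), where 2 against 2 libraries cannot go below an exact permutation p of 0.333. The 2 Hand genes thus changed unequally with time.

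**Figure D4:**
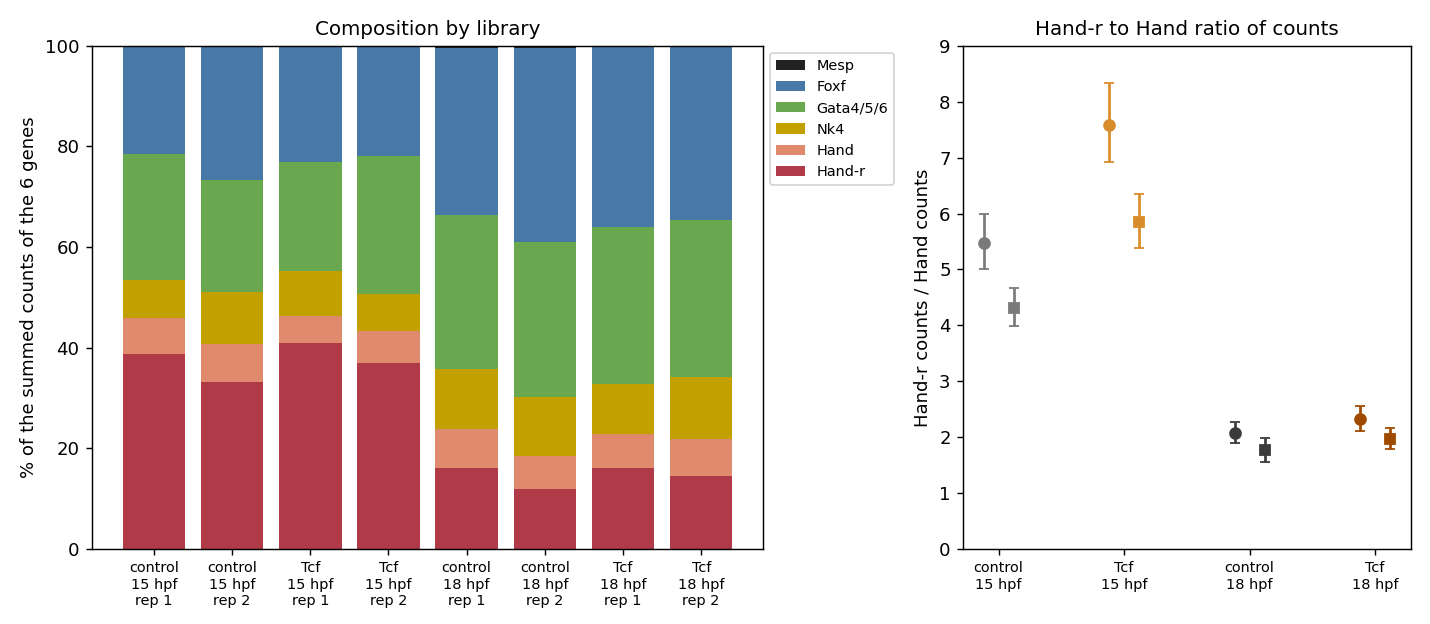
Left, share of each gene in the summed counts of the 6 genes (vertical axis, percent) in each of the 8 libraries. Right, Hand-r counts divided by Hand counts (vertical axis, from 0) by group, with circles for replicate 1, squares for replicate 2 and bars for the Wilson 95% counting interval. The Hand-r share was 33.1% to 40.9% at 15 hpf and 11.8% to 16.1% at 18 hpf, and the ratio was 4.31 to 7.59 and 1.76 to 2.32.

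Beyond counting error, the genes differed in how closely replicates matched. The SD of log2 CPM within groups was 0.11 for Foxf, 0.17 for Gata4/5/6, 0.22 for Nk4, 0.16 for Hand and 0.21 for Hand-r. Counting alone would give 0.03 to 0.06 for these 5 genes, so most of their spread did not come from counting. For Mesp the SD was 0.55 and counting alone would give 0.33.

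Models with the most similar profile over the 8 libraries were sought by Pearson's correlation of log2 CPM, which is a description, since libraries of 1 age share most of their differences from the other age. Each is also the highest among all other tested models over only 8 libraries, so a high correlation can arise from that choice alone. Shared regulation was not tested. For Hand-r the most similar model was KH.C9.28 (correlation 0.996 over 8 libraries), at 1660 to 1970 CPM at 15 hpf and 640 to 857 CPM at 18 hpf. For Hand-r 256 models exceeded a correlation of 0.95, while the other 5 genes had 1 to 7 such models each. For Nk4 the most similar model was KH.S595.16 (correlation 0.993), at 13.3 to 17.3 CPM at 15 hpf and 12.7 to 17.4 CPM at 18 hpf. For Foxf it was KH.C11.378 (0.978), at 444 to 586 CPM at 15 hpf and 525 to 637 CPM at 18 hpf.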

How the data were processed

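The submitters' processing notes name TopHat2 2.0.12 and featureCounts. The deposited values are whole-number read counts per gene model, 1 table per library. The build, strand setting and handling of multiply mapped reads are not stated there, so that similar or overlapping models may share reads. For control at 15 hpf the replicate numbers in headers and titles are swapped, and those of the titles were used. The number of columns of other samples was 0.

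Models were kept by filterByExpr, given the 4 groups and a minimum count setting of 10. They were tested in edgeR 4.0.16 (limma 3.58.1, R 4.3.3) with a robust quasi-likelihood fit of 4 group means to all 8 libraries. P-values were Benjamini-Hochberg adjusted over 11970 models. SEs derive from the fold change and its F statistic. Log2 CPM used a prior count of 2. The ratio used a pseudocount of 1 and an exact permutation test (scipy 1.17.1). Alternatives were DESeq2 1.42.0, limma-voom, other scaling, filter, spread and sample choices, and replicate blocks. All 6 genes are named by rule, and the most similar models by correlation, at most 2 higher and 2 lower at 18 hpf. The genes and lists were chosen with earlier results of these data known. The 24 other symbols listed matched 0 identifiers and were not used.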

Additional observations from a re-analysis of the deposited data

How the results depend on the processing

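The fall of Hand-r with time kept its direction and its call under all alternatives run, and no member was called between guides under any. With the control guide, 1 member in place of 2 was called over time with limma-voom, library totals, no expression filter, no robust estimation, the replicate block by title or header numbers, only the 4 libraries compared, and single libraries left out (range 1 to 2). With library totals 2 members were called in Tcf and in the mean of both guides, Foxf being added, and leaving out single libraries gave a range of 1 to 2 for that mean. The replicate block changed no other call of a member. Same-numbered libraries did not deviate together (correlation of deviations over models -0.17 to 0.06), so the numbers were not taken to pair samples.

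Directions of uncalled values turned in several settings, and the cause was not tested. With limma-voom Mesp turned to 0.02 (guide, mean of times) and -0.06 (time, control). With library totals, which moved the median of all models to 0.14 in control, 0.20 in Tcf and 0.18 in their mean, the change with time turned to 0.11 for Gata4/5/6 and 0.05 for Hand in Tcf, and to 0.08 for Mesp, 0.04 for Gata4/5/6 and 0.09 for Nk4 in the mean. Leaving out single libraries gave these ranges of log2 fold change. Tcf against control at 15 hpf ranged from -0.14 to 0.54 for Mesp, -0.17 to 0.12 for Foxf, -0.09 to 0.32 for Gata4/5/6 and -0.25 to 0.15 for Nk4. At 18 hpf the range was -0.77 to 0.40 for Mesp and -0.10 to 0.34 for Nk4. For the mean of both times it was -0.31 to 0.27 for Mesp, -0.08 to 0.14 for Nk4 and -0.13 to 0.03 for Hand. The interaction ranged from -0.92 to 0.26 for Mesp, -0.09 to 0.31 for Gata4/5/6, -0.04 to 0.41 for Nk4 and -0.12 to 0.42 for Hand-r. Time in control ranged from -0.57 to 0.62 for Mesp, -0.09 to 0.19 for Foxf and -0.35 to 0.06 for Nk4. Time in Tcf ranged from -0.26 to 0.15 for Gata4/5/6, -0.19 to 0.26 for Nk4 and -0.27 to 0.03 for Hand. Time as the mean of guides ranged from -0.44 to 0.16 for Mesp and -0.17 to 0.05 for Nk4. The log2 ratio of Hand-r to Hand ranged from -1.63 to -1.35. A fit without 1 library assumes that the lone sample of that group varies like the others.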
